A study of Homo sapiens with 6 samples.

Results

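The genes described here are 10 regulators of mitochondrial death and turnover: the mitophagy receptors BNIP3 and BNIP3L, the anti-apoptotic genes BCL2, BCL2L1 and MCL1, the pore-forming effectors BAX and BAK1, and the BH3-only genes BCL2L11, BBC3 and PMAIP1. They were found by gene symbol in the deposited polysome-sequencing table, where all 10 had a row among 30345 and all 10 were among the 15634 tested genes. The cells were OS-RC-2 (OSRC-2), a line of clear cell renal cell carcinoma (ccRCC) without functional VHL, given 2 µM PT2399 in 3 libraries or vehicle in 3 libraries for 72 h. PT2399 is an inhibitor of HIF2, the hypoxia-inducible transcription factor that accumulates when the VHL protein is lost, and the comparison asks which RNAs in pooled polysome fractions depend on it. One of the labels gives the dose in mM, whereas the treatment protocol and the methods give µM. Both groups lack VHL, so the vehicle cells are HIF2-active and are not a normoxic normal control, and the data come from a single cell line.

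Proteins of the BCL2 family decide whether the outer mitochondrial membrane is breached during apoptosis. BAX and BAK1 form the pores, BCL2, BCL-XL (from BCL2L1) and MCL1 hold them in check, and BH3-only proteins such as BIM (BCL2L11), PUMA (BBC3) and NOXA (PMAIP1) bind the anti-apoptotic proteins and free the effectors. BNIP3 and its paralog BNIP3L (also called NIX) sit in the same membrane, carry a motif that binds ATG8 proteins of the autophagosome and so mark mitochondria for removal. Both are textbook targets of the hypoxia pathway, with BNIP3 known mainly as a HIF1 target.

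Because both BNIP3 and BAX carry the core of the HIF response element in front of their start sites while their values differed, the 150 bases before each start are shown, 5′ to 3′ on the gene's strand. The sequences are from RefSeq on GRCh38.p14, BNIP3 at chr10:131981924-131982073 (minus strand) and BAX at chr19:48954725-48954874 (plus strand), and capitals mark every match to ACGTG or GCGTG on either strand.
BNIP3: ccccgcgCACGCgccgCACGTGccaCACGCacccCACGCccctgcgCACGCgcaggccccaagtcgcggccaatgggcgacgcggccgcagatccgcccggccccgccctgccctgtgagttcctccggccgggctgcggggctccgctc
BAX: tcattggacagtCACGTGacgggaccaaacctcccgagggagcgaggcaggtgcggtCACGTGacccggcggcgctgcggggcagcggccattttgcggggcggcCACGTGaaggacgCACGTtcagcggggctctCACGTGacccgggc
Each CACGTG is matched once on each strand and also is the letter core of an E-box. By this count the full window, from 250 bases before to 50 after the start, held 6 matches for BNIP3 and 9 for BAX. The windows held 1 CACGTG for BNIP3 and 4 for BAX, so counting both strands raises the number more for BAX. Of 35116 RefSeq windows of that length, 48.4% held at least 1 match, 1.98% held 5 or more and 0.159% held 9 or more. RefSeq windows were matched for 8 of the 10 genes, and 6 of the 8 held a match: BCL2L11, BBC3 and PMAIP1 held 2 each, BCL2L1 held 1 in one of its windows, and BCL2 and BAK1 held 0. Both matches of BBC3 came from a single CACGTG. A match is a string of letters and not a measured binding site.

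The deposited values cover both groups at once. Each gene had a mean normalized count over the 6 libraries, a log2 fold change of PT2399 over vehicle with its standard error (SE), and an adjusted p from DESeq2's two-sided Wald test with Benjamini-Hochberg adjustment. Values of single libraries were not used here, so the level in each group was derived from the mean and the fold change, and the spread between replicates enters only through the SE. Genes with an adjusted p up to 0.05 are named as called. Relative depth, read from genes with a lone read, ran from 0.782 to 1.19 of the typical library. The drug's target behaved differently from its relative in these fractions: EPAS1, which encodes HIF2α, fell by 2.19 (SE 0.07) on the log2 scale and HIF1A rose by 0.63 (SE 0.05), with DESeq2 adjusted p of 8.7e-241 and 1.1e-41. All 7 ccRCC markers examined had a mean of at least 101.2 normalized counts, NDUFA4L2 being the lowest. Of 8 markers of leukocytes, endothelium and fibroblasts, 7 had a row and CD3E had none. CD68 at 3555.3 and COL1A1 at 209.3 exceeded 100, while PTPRC, CDH5 and DCN lay under 2 normalized counts.

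Of the 10 genes, 2 rose with PT2399 (BNIP3 and BCL2L11), 2 fell (BCL2 and MCL1) and 6 were not called. Over all tested genes 23.0% were called, 11.3% higher and 11.7% lower. The 10 genes were abundant, with means from 778.1 to 17103.9 normalized counts, and among the 7602 tested genes in that range 32.4% were called, so 4 of 10 lies near the share for genes of like abundance. None of the 10 changed 2-fold. Their median log2 fold change was 0.05, beside 0.00 for all tested genes. Total RNA was not measured in these libraries, so a change in the amount of an mRNA and a change in its loading onto ribosomes cannot be told apart, nor can fewer expressing cells and less RNA per cell.

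**Figure D1:**
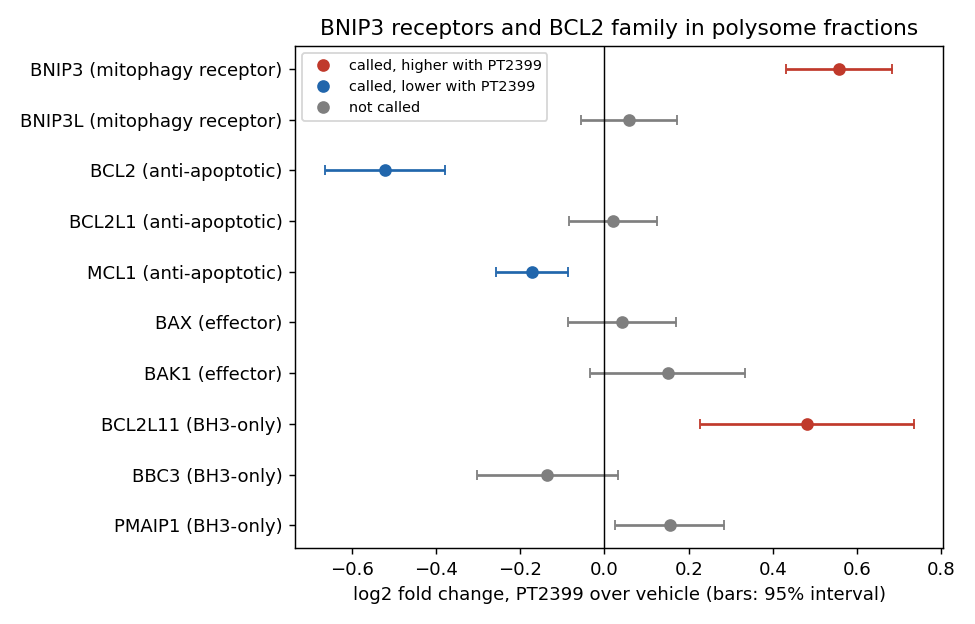
Log2 fold change of PT2399 over vehicle for the 10 genes in polysome fractions of OS-RC-2 cells (3 libraries per group); points are the deposited estimates, bars are 95% intervals, and colours give the call at an adjusted p of 0.05. BNIP3 and BCL2L11 lie to the right at 0.56 and 0.48, BCL2 and MCL1 to the left at -0.52 and -0.17, and the rest lie closer to 0.

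The mitophagy receptors moved apart. BNIP3 (ENSG00000176171; chromosome 10, 131967684 to 131981923, GRCh38, protein coding) had a derived level of 3530.1 normalized counts with vehicle and 5192.9 with PT2399. That is 147% of vehicle (95% interval 135% to 161%), a log2 fold change of 0.56 (SE 0.06) with a DESeq2 Wald adjusted p of 2.8e-16. It ranked 312 of 15634 tested genes by the size of the Wald score and was the clearest change among the 10. BNIP3L (ENSG00000104765; chromosome 8, 26383054 to 26413127) had a derived level of 6469.3 with vehicle and 6735.0 with PT2399. For BNIP3L the log2 fold change came to 0.06 (SE 0.06, 95% interval -0.06 to 0.17) with a DESeq2 adjusted p of 0.542, an interval that leaves room for a rise to 113% of vehicle but not for one of the size seen in BNIP3. The difference between the paralogs, BNIP3 minus BNIP3L, was 0.50 on the log2 scale (SE 0.09, 95% interval 0.33 to 0.67), taking their errors as independent.

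Levels of different genes were compared per kilobase of the MANE Select transcript. On that scale BNIP3 stood at 2289.3 normalized counts per kilobase with vehicle and BNIP3L at 1874.1, and with PT2399 they stood at 3367.6 and 1951.0. BNIP3 shares sequence with 46 pseudogenes annotated in RefSeq, of which 3 were counted apart from it with means of at most 1.15 normalized counts and BNIP3P4 with 47.7, against 4361.5 for BNIP3. BNIP3P4 had a log2 fold change of -0.20 (SE 0.35) and was not called (DESeq2 adjusted p = 0.753). PPP2R2D, which overlaps BNIP3 on chromosome 10, had 0.01 (SE 0.08, DESeq2 adjusted p = 0.946).

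**Figure D2:**
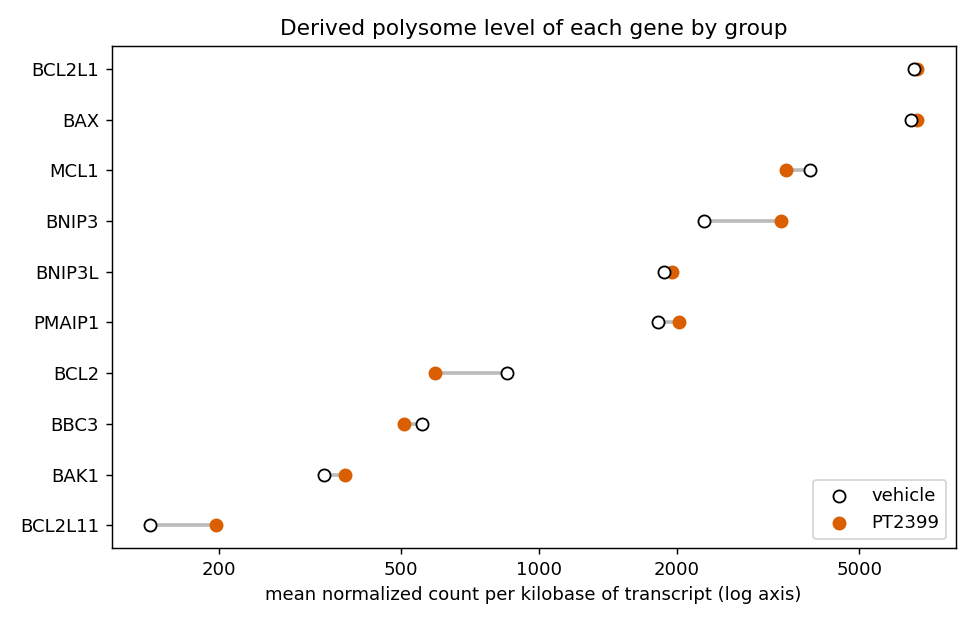
Derived mean normalized count per kilobase of the MANE Select transcript (log axis) for each gene with vehicle (open circles) and PT2399 (filled circles), ordered by the vehicle level; each circle is 1 group value from 3 libraries, with no error shown because values of single libraries were not used. The wide gaps are those of BNIP3, BCL2 and BCL2L11, while BCL2L1 and BAX lead in both groups.

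Among the anti-apoptotic genes BCL2 and MCL1 fell and BCL2L1 was not called. BCL2 (ENSG00000171791; chromosome 18, 63123346 to 63320090) had a derived level of 5852.1 normalized counts with vehicle and 4076.5 with PT2399. It fell to 69.7% of vehicle (95% interval 63.1% to 76.9%), a log2 fold change of -0.52 (SE 0.07) with a DESeq2 Wald adjusted p of 2.6e-11. MCL1 (ENSG00000143384; chromosome 1, 150574558 to 150579610), whose protein is short-lived and must be made continuously, went from 15424.8 to 13697.7. This small fall, to 88.8% of vehicle (95% interval 83.7% to 94.2%; log2 fold change -0.17, SE 0.04), had a DESeq2 adjusted p of 7.6e-04. BCL2L1 (ENSG00000171552; chromosome 20, 31664452 to 31723963) was the most abundant of the 10, at 16981.6 with vehicle and 17226.1 with PT2399. Its log2 fold change of 0.02 (SE 0.05, 95% interval -0.08 to 0.12) had a DESeq2 adjusted p of 0.847.

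BCL2 fell further than BCL2L1, by 0.54 on the log2 scale (SE 0.09, 95% interval of BCL2 minus BCL2L1 -0.72 to -0.37), and BCL2L1 minus MCL1 was 0.19 (SE 0.07, 95% interval 0.06 to 0.33). Per kilobase, BCL2L1 stood at 6597.4 normalized counts with vehicle, MCL1 at 3905.0 and BCL2 at 850.5, and the order was the same with PT2399 at 6692.4, 3467.8 and 592.4. BCL2 was therefore the least abundant of these 3 transcripts per length and the one with the largest relative fall. The gene-level value of BCL2L1 adds up its long, anti-apoptotic isoform and its short isoform, and that of MCL1 does the same for its splice forms.

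The pore-forming effectors were not called. BAX (ENSG00000087088; chromosome 19, 48954875 to 48961798) had a derived level of 5155.0 normalized counts with vehicle and 5307.5 with PT2399, a log2 fold change of 0.04 (SE 0.07, 95% interval -0.09 to 0.17; DESeq2 adjusted p = 0.724). BAK1 (ENSG00000030110; chromosome 6, 33572552 to 33580276) had 737.7 and 818.5, a log2 fold change of 0.15 (SE 0.09, 95% interval -0.03 to 0.33; DESeq2 adjusted p = 0.273). BAX minus BAK1 was -0.11 (SE 0.11, 95% interval -0.33 to 0.12). The effectors differed widely in level, BAX standing at 6484.3 normalized counts per kilobase with vehicle and BAK1 at 340.0. The MANE transcript of BAX is short, at 795 bases, so reads from longer BAX isoforms would raise its value per kilobase.

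The BH3-only genes went different ways. BCL2L11 (ENSG00000153094; chromosome 2, 111120914 to 111168445), which encodes BIM, had a derived level of 721.8 normalized counts with vehicle and 1007.1 with PT2399. It rose to 140% of vehicle (95% interval 117% to 166%), a log2 fold change of 0.48 (SE 0.13) with a DESeq2 Wald adjusted p of 0.0017. Its SE was the largest of the 10 and exceeded that of 94.0% of the 500 tested genes nearest in mean count. PMAIP1 (ENSG00000141682; chromosome 18, 59899996 to 59904305), the NOXA gene, had 3456.1 and 3847.0, a log2 fold change of 0.15 (SE 0.07, 95% interval 0.03 to 0.28), an interval that leaves out 0, but was not called (DESeq2 adjusted p = 0.0741). BBC3 (ENSG00000105327; chromosome 19, 47220824 to 47232860), the PUMA gene, had 1026.9 and 934.8, a log2 fold change of -0.14 (SE 0.09, 95% interval -0.30 to 0.03; DESeq2 adjusted p = 0.276).

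BCL2L11 minus BBC3 was 0.62 on the log2 scale (SE 0.15, 95% interval 0.31 to 0.92), and BBC3 minus PMAIP1 was -0.29 (SE 0.11, 95% interval -0.50 to -0.08). Per kilobase of transcript with vehicle, PMAIP1 stood at 1820.0 normalized counts, BBC3 at 556.3 and BCL2L11 at 141.6, the lowest of all 10 genes. BCL2L11 minus BCL2, a pair chosen after the values were seen, was 1.00 (SE 0.15, 95% interval 0.71 to 1.29), and the ratio of BCL2L11 to BCL2 per kilobase went from 0.166 with vehicle to 0.333 with PT2399.

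**Figure D3:**
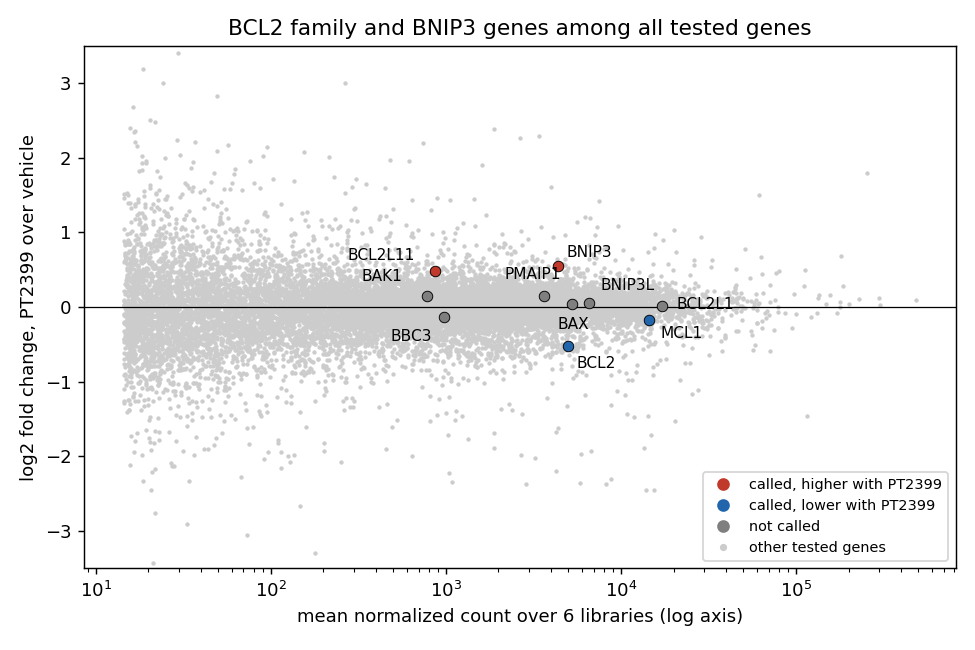
Mean normalized count over the 6 libraries (log axis) against the log2 fold change of PT2399 over vehicle for the tested genes (grey; 9 genes beyond ±3.5 lie outside the plot), with the 10 described genes marked by their call. All 10 have means of at least 778.1 and sit inside the range of the grey points, with BNIP3 and BCL2L11 on the upper side and BCL2 on the lower side.

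The precision behind these values differed between genes. The variation between libraries that the deposited SE implies, as a coefficient of variation after counting error, ran from 3.60% for MCL1 to 10.4% for BCL2L11, with 5.25% for BNIP3 and 6.02% for BCL2. These values rest on DESeq2's dispersion estimates, which share information between genes, and are not each gene's own measured spread. Counting alone made up 2.89% of the squared SE for BCL2L1, and 20.4% for BAK1, the highest share. The calls of BCL2, MCL1 and BCL2L11 also rest on the normal reference that DESeq2 uses with its shared dispersion estimates. With a t distribution of 4 degrees of freedom in its place, BNIP3 alone among the 10 passed (adjusted p = 0.0492 from the deposited DESeq2 Wald scores). By the same t distribution BCL2, MCL1 and BCL2L11 had adjusted p of 0.0613, 0.157 and 0.170. Over all 15634 tested genes 322 passed in this way, beside 3594 with the normal reference, so most called genes lost their call.

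Among other BCL2 family and BNIP genes BCL2A1 and BCL2L15 fell and BNIP2 rose. For each further list the counts are read against the share called among the 500 tested genes nearest in mean to each listed gene, averaged over the list and termed the share at like abundance. Of 15 genes on this list 12 were tested, of which 1 was higher, 2 lower and 9 not called, their median log2 fold change being 0.04. At like abundance 19.8% were called. BCL2A1, which encodes the anti-apoptotic protein A1, fell by 0.90 (SE 0.10, DESeq2 adjusted p = 3.4e-17) to 53.4% of vehicle at a mean of 827.7 normalized counts. BCL2L15 fell by 0.82 (SE 0.25, DESeq2 adjusted p = 0.0067) at a mean of 104.7, and BNIP2, a BCL2-interacting protein that is not itself a family member, rose by 0.14 (SE 0.05, DESeq2 adjusted p = 0.036). BCL2L13, another outer membrane protein with a part in mitophagy, at 0.07 (SE 0.06) and BID, the BH3-only protein cut by caspase-8, at 0.11 (SE 0.10) were not called. In groups by role that were not planned beforehand, some of these genes were added to the 10. Of 5 tested anti-apoptotic genes 3 were lower, BCL2 and MCL1 among them, and 2 were not called. Of 7 tested BH3-only genes 1 was higher and 6 were not called, and all 3 effectors (BOK included) were not called. BCL2L15, which fell, was in none of these groups. At like abundance 17.0% of genes were lower for the anti-apoptotic genes and 9.49% were higher for the BH3-only genes, so 1 of 7 lies near that share. BCL2L10, BCL2L14 and HRK had means of at most 2.33 normalized counts and no adjusted p.

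Among other genes of mitophagy TAX1BP1, FBXL4 and SQSTM1 were among those that rose. Of 20 tested mitophagy receptors and genes of the PINK1 pathway, 4 were higher, 1 lower and 15 not called, their median log2 fold change being 0.09. At like abundance 31.6% were called, beside 5 of 20 here. TAX1BP1, an autophagy adaptor, rose by 0.33 (SE 0.05, DESeq2 adjusted p = 2.0e-09). FBXL4, part of the ubiquitin ligase that keeps BNIP3 and BNIP3L protein low, rose by 0.32 (SE 0.07, DESeq2 adjusted p = 2.5e-05), and SQSTM1, the adaptor p62, by 0.28 (SE 0.06, DESeq2 adjusted p = 6.6e-06). CALCOCO2 (NDP52), the gene that fell, is named after its value was seen, at -0.26 (SE 0.08). RHEB at -0.11 (SE 0.06) and OPTN at -0.14 (SE 0.07) were not called.

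Of 26 tested genes of autophagosome formation 7 were higher, 1 lower and 18 not called, with a median of 0.09. In all 30.8% were called, beside 25.8% at like abundance, and 26.9% were higher, beside 12.8% at like abundance. GABARAPL1, an ATG8 protein, rose by 0.62 (SE 0.08, DESeq2 adjusted p = 2.4e-13), WIPI1 by 0.39 (SE 0.09) and MAP1LC3B, encoding LC3B, by 0.23 (SE 0.06), while ULK2, an initiating kinase, fell by 0.55 (SE 0.13). WIPI2 at 0.04 (SE 0.07) and RB1CC1 at 0.12 (SE 0.07) were not called. ATG8 proteins are the partners that BNIP3 and BNIP3L bind. Looked at apart after the values were seen, 4 of 6 tested ATG8 genes were higher (11.6% at like abundance), GABARAP at 0.23 (SE 0.06) and GABARAPL2 at 0.22 (SE 0.08) among them, and the 2 not called, MAP1LC3C and MAP1LC3B2, had means of 19.7 and 15.7 normalized counts. MAP1LC3B2 is a near copy of MAP1LC3B, so the split of reads between them is uncertain.

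**Figure D4:**
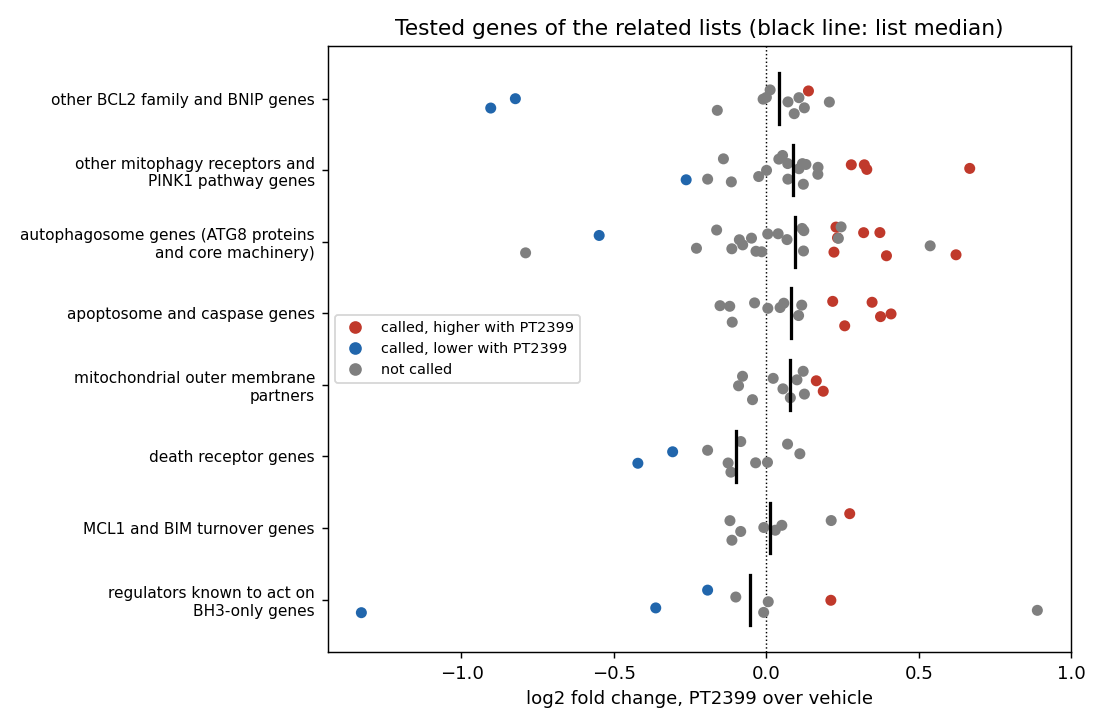
Log2 fold change of PT2399 over vehicle for the tested genes of 8 related lists, 1 point per gene, coloured by its call at an adjusted p of 0.05, with a black line at each list's median. The medians lie between -0.10 for death receptor genes and 0.09 for autophagosome genes, and TRIB3 at -1.33 is the point farthest to the left.

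Downstream of the mitochondrial pore, 5 of 14 tested genes of the apoptosome and caspases were higher, none was called lower in DESeq2's test and 9 were not called (median 0.08). At like abundance 32.3% of genes were called in either direction and 16.4% were higher. CYCS, cytochrome c, rose by 0.35 (SE 0.05, DESeq2 adjusted p = 2.7e-09), BIRC2, the inhibitor cIAP1, by 0.41 (SE 0.07, DESeq2 adjusted p = 2.6e-07), and AIFM1 by 0.37 (SE 0.08). The list therefore holds the rise of an inhibitor of apoptosis beside that of cytochrome c. BIRC6 at -0.12 (SE 0.06) and BIRC3 at -0.11 (SE 0.05) were not called. Of 11 genes of outer membrane channels and mitochondrial shape 2 were higher and 9 not called (median 0.08; 34.3% called at like abundance): VDAC2, the channel that holds BAK1 in place, rose by 0.16 (SE 0.06) and MFN2 by 0.19 (SE 0.07), and VDAC1 at 0.10 (SE 0.05) and OPA1 at 0.05 (SE 0.08) were not called.

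On the death receptor side 2 of 10 genes were lower and 8 not called (median -0.10; 30.2% called at like abundance). CFLAR, which encodes the caspase-8 inhibitor c-FLIP, fell by 0.42 (SE 0.05, DESeq2 adjusted p = 3.1e-15) and the receptor FAS by 0.31 (SE 0.06, DESeq2 adjusted p = 5.9e-07). TNFRSF10B at -0.12 (SE 0.05) and TNFRSF1A at 0.11 (SE 0.07) were not called. Among 8 tested genes that set the turnover of MCL1 and BIM, BAG3 rose by 0.27 (SE 0.06, DESeq2 adjusted p = 3.9e-05) and 7 were not called (median 0.01; 38.1% called at like abundance). HUWE1, a ubiquitin ligase for MCL1, at 0.03 (SE 0.05) and USP9X, which removes ubiquitin from it, at -0.01 (SE 0.05) were not called.

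Regulators known to act on BH3-only genes were mixed, with 1 higher, 3 lower and 4 not called of 8 tested (median -0.05; 27.6% called at like abundance). TRIB3, a pseudokinase of the integrated stress response, fell by 1.33 (SE 0.07, DESeq2 adjusted p = 3.5e-90), E2F1 by 0.36 (SE 0.10) and ATF4, which can raise PMAIP1, by 0.19 (SE 0.05, DESeq2 adjusted p = 0.0011). FOXO3, a known activator of BCL2L11 and BBC3, had 0.01 (SE 0.06) and FOXO1 had -0.01 (SE 0.11), both not called.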

How the data were processed

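Lysates of 3 PT2399 and 3 vehicle cultures, biological replicates per the methods, were run on sucrose gradients. RNA from the pooled fractions denser than single ribosomes went into stranded total RNA libraries. The submitters' processing notes name hg38, DESeq2 1.22.1, STAR 2.7.3a and Salmon. For Salmon a version, and for the counting the strand setting, are not given in the sources used here.

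The deposited table holds the authors' DESeq2 comparison of PT2399 over vehicle in 30345 rows. Its mean normalized count is a signal over all 6 libraries, its log2 fold change and SE, also in log2 units, were estimated by the authors without shrinkage, and dividing them gives the deposited Wald score. Raw and adjusted p-values were deposited by the authors as DESeq2 gave them. Exceptions are those named as from a t distribution or as adjusted again over fewer genes. The adjusted p is missing for 14711 rows, and repeating the Benjamini-Hochberg step over the remaining 15634 gave the same values. With no column of a single library, no refit, total count or batch search was possible, and the authors' statistics were used as a description. A mean below that of a lone read occurred in 153 genes, so factors beyond 1 per library entered the normalization.

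Group levels were derived as those that give the deposited mean and fold change in groups of equal size, which is approximate. Intervals of 95% are ± 1.96 SE. Differences between genes took both SEs as independent. Implied variation assumed a negative binomial spread common to both groups. Data simulated under that same assumption gave back the deposited SEs, which checks the formula and not the assumption. Names and coordinates are RefSeq GRCh38.p14, and transcript lengths are MANE Select in GENCODE. All 10 genes are named, as are the drug target with its relative and, from each further list, up to 4 called genes, taken by smallest adjusted p, with at most 2 uncalled genes of highest mean, others being marked where they appear. MARCHF5 was not analysed here, and some genes that the rule names are not reported here. The genes, lists and tests were chosen with earlier results of these data known. Computing used Python 3.11.15 with scipy 1.17.1, numpy 2.4.6 and pandas 2.3.3, and plots used matplotlib 3.10.9.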

Additional observations from a re-analysis of the deposited data

How the results depend on the processing

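Of the 10 genes 4 were called in the main setting, as were 3594 of all 15634 tested genes. The count for the 10 was also 4 at an adjusted p of 0.01, beside 2550 of all tested genes. It stayed at 4 with adjustment over all 30341 p-values, where 3116 genes were called. The same held for genes whose mean reached 100 (3536 of 12219 called) and among protein-coding genes only (3424 of 12585 called). With the further limit of a log2 fold change of 1 in size, 0 of the 10 and 320 of all genes were called in place of 4 and 3594. With a t distribution of 4 degrees of freedom in place of the normal, 1 of the 10 and 322 of all genes were called, the construction giving each gene wider tails than DESeq2's shared dispersion estimates assume. Across 60 combinations of gene and setting in which the threshold was applied, 53 stayed on the same side of it. Most of the 53 came from genes not called in the main setting, which the stricter settings could not turn into calls. The limits to a mean of 100 and to protein-coding genes could have done so. Adjusted again over these fewer genes, the DESeq2 Wald test's adjusted p for PMAIP1 went from 0.0741 to 0.0617 and 0.0649, still without a call. The other 7 all fell on the 4 called genes. All 4 lost their call with the fold change limit, and all but BNIP3 also lost it with the t distribution. Centring on the median of all tested genes or of genes of like mean moved the values by up to 0.05 on the log2 scale and was not tested. No paired analysis was possible because the deposited table has no values per library, and for the same reason leaving out replicates was not run. Depth per library is known only in relative terms, and counting made up at most 20.4% of any of these genes' squared SE.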
